A study of Homo sapiens with 18 samples.

Results

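MAX is the DNA-binding partner of MYC. The sites compared here are the deposited MAX peaks of cells with inducible wild-type MYC (WT) and of cells with the inducible mutant named 3A in the labels. All peaks of both lists were used, 34622 in the WT list and 27294 in the 3A list, which are 61916 of the 87075 peaks of the series. A WT peak and a 3A peak were called partners when they shared at least 1 bp. Sites without a partner are called lost (WT peaks) or gained (3A peaks), which says only whether a peak was listed.

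MYC and MAX each carry a helix-loop-helix and leucine zipper region and bind DNA as a pair, preferably at the E-box CACGTG. MAX also pairs with itself and with the repressors MXD1 to MXD4, MNT and MGA, so MAX peaks mark the sites of the whole network and not of MYC alone. The network is known for binding promoters of genes of ribosome assembly, translation, metabolism and the cell cycle, and distal sites where MYC is abundant.

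The cells were U2OS, a human osteosarcoma line, with their own MYC knocked out. Into this background, shared by all groups, a Tet-On construct brought MYC-WT or MYC-3A, switched on by doxycycline (Dox). The groups were MYC-WT without Dox, MYC-WT with Dox, MYC-3A without Dox and MYC-3A with Dox. Dox was given at 1 µg/ml over 24 h, and cells without it had vehicle for 24 h. Each group had 2 immunoprecipitation libraries, described as biological replicates, and 1 input, and 10% mouse NIH3T3 cells were mixed in before immunoprecipitation as a reference. The labels do not describe the residues changed in 3A, and do not say whether each line was 1 clone. MAX is the target given in the antibody field and the titles, which were followed, although the immunoprecipitation protocol speaks of anti-FLAG.

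Each MYC form came with 1 list, in which neither Dox nor replicate can be separated. The values below therefore describe 2 lists, with no replicate check, and no test between MYC forms was possible. The depth behind each list is not given in it. Intervals are 95% Clopper-Pearson intervals and cover counting error only. Strength is the deposited fold enrichment, the authors' own value of a peak on its list's own scale. What served as its background is not stated in the sources used here. If one Dox state was the control of the other, it would be a ratio between Dox states and not a measure of MAX occupancy, and a lost site would be one without such a difference in 3A. It was used as a rank within its list, written as percent from the strongest, so that 1 is near the top and 99 near the end.

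Promoters are shown first, chosen among the 300-base windows that held the summits. They are the 2 strongest without a partner in each list, the 2 with the largest shift lower in 3A, the 1 with the largest shift higher and the 1 strongest in both. Each sequence runs 5′ to 3′ on the gene's strand, from 250 bases before to 50 bases after a start site (RefSeq, GRCh38.p14). CACGTG and its variant CACGCG, which reads CGCGTG on the opposite strand, are in capitals. Where such letters stand is a description and no proof of binding.

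The promoters of EPHA8, an ephrin receptor (chr1:22563239-22563538, plus strand), and AGAP3, a GTPase-activating protein (chr7:151086225-151086524, plus strand), held strong WT peaks and no 3A peak. In EPHA8 the WT summit lay at base 107 and the single CACGTG began at base 102, while AGAP3 held none.
EPHA8: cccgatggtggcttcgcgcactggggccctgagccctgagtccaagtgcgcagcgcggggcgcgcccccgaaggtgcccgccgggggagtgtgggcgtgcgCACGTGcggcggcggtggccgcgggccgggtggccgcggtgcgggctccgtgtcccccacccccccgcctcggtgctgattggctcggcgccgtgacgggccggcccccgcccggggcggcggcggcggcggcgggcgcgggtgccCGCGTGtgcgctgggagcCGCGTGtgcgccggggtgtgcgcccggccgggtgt
AGAP3: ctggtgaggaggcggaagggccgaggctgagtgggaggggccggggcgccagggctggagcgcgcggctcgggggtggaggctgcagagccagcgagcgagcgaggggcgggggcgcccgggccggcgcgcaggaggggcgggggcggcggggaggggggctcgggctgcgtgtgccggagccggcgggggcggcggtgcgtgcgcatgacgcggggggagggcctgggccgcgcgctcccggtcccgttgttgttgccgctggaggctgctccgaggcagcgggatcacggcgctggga

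The promoters of PAGE2B, a germline antigen gene (chrX:55074780-55075079, plus strand), and NR1D1, which encodes the clock repressor REV-ERB alpha (chr17:40100540-40100839, minus strand), held a 3A peak that overlapped no WT peak. Fold enrichment was 22.6 at PAGE2B and 14.5 at NR1D1. The 3A summit lay at base 196 in PAGE2B, where CACGTG began at base 214.
PAGE2B: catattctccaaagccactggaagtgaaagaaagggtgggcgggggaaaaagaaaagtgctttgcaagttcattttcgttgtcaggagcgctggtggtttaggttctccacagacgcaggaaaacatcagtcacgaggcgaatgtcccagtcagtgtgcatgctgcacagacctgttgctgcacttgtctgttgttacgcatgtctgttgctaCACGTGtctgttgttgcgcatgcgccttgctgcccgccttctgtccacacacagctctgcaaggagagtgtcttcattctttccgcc
NR1D1: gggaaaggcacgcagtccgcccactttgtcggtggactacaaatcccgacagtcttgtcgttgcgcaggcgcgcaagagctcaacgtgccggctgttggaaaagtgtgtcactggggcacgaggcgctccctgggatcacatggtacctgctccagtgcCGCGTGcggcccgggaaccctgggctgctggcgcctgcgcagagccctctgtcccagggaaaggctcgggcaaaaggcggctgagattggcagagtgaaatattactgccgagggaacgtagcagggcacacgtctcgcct

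The promoters of PTCHD4, a patched-related membrane protein (chr6:48068781-48069080, minus strand), and TBC1D14, a regulator of autophagy (chr4:6909576-6909875, plus strand), ranked far lower in 3A. Fold enrichment was 47.7 in WT (3.45% from the top) and 5.78 in 3A (90.1%) at PTCHD4, and 39.4 (5.49%) and 7.39 (77.1%) at TBC1D14. Neither held CACGTG.
PTCHD4: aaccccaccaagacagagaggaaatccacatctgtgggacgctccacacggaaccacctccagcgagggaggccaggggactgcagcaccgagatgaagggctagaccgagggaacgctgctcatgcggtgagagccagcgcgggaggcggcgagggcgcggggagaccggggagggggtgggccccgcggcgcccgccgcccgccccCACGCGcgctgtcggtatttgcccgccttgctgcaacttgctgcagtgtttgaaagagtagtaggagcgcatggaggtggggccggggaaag
TBC1D14: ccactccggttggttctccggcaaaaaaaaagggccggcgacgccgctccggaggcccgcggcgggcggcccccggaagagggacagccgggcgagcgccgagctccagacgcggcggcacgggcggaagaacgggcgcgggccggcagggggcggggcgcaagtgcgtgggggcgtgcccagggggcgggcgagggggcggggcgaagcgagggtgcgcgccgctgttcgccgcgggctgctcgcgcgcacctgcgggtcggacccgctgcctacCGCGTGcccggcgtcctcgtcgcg

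The promoter of CD2BP2, a splicing factor of the U5 particle (chr16:30355259-30355558, minus strand), ranked far higher in 3A, and that of MTHFD1L, a mitochondrial folate enzyme (chr6:150866197-150866496, plus strand), was among the strongest in both lists. In MTHFD1L the CACGTG began at base 136, and the summits lay at bases 138 (WT) and 135 (3A).
CD2BP2: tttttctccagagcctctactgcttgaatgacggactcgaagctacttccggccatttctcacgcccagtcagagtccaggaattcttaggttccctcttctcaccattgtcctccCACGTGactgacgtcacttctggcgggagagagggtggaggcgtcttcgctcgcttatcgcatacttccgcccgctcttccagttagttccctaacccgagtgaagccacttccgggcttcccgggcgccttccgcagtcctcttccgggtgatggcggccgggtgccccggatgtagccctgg
MTHFD1L: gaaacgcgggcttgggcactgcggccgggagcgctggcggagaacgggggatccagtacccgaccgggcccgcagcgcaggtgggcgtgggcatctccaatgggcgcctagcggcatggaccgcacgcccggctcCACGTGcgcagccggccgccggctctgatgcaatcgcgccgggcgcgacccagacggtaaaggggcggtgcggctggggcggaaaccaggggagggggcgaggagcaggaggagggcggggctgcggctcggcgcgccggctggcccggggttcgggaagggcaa

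How many MAX sites of WT were also listed in 3A was asked first. Of the WT peaks, 25637 (74.0%, 73.6% to 74.5%) had a 3A partner and 8985 (26.0%, 25.5% to 26.4%) had none. Of the 3A peaks, 26040 (95.4%, 95.2% to 95.7%) had a WT partner and 1254 (4.59%, 4.35% to 4.85%) had none. The lists were thus nested to a large degree, with the 3A list mostly inside the longer WT list. Cut to the same length of 27294 by −log10 q, the lists lost this asymmetry: 17.2% of WT peaks and 15.5% of 3A peaks then had no partner. The size of the difference thus depended on where the longer list was ended. In lists of equal length the 2 shares can differ only where 1 peak overlaps several of the other list. This held for 508 WT peaks and 47 3A peaks, so the gap that remained does not show more lost than gained sites.

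Lost sites were weak and narrow. Their median fold enrichment was 7.51, against 12.6 for WT peaks with a partner, and their median width 329 bp against 693 bp. Gained sites were alike in this, with a median fold enrichment of 6.91 and a median width of 328 bp. Among the strongest 10% of WT peaks 98.1% had a 3A partner, and among the weakest 10% 51.4% did. For 3A peaks the share went from 99.8% to 85.9%. In the lists of equal length the strongest 10% still had partners at 98.5% (WT) and 99.8% (3A). The weakest 10% had them at 74.6% and 53.5%, so the order of the lists turned among the weakest peaks, as the plot of partner shares by strength shows.

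**Figure D1:**
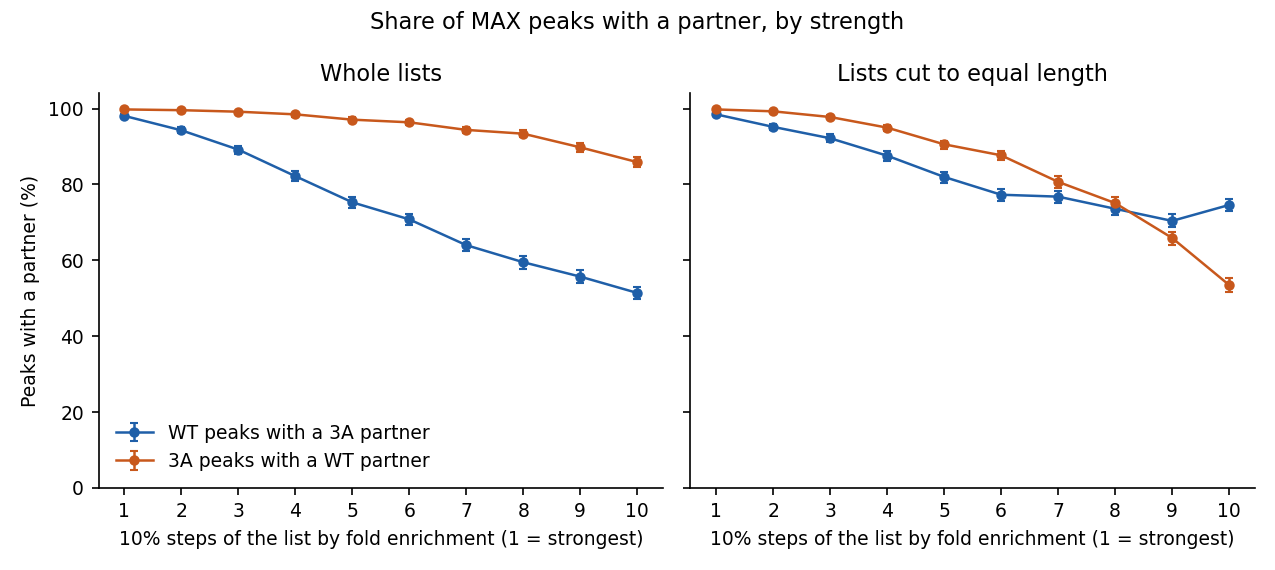
Share of peaks with a partner (%, vertical) by steps of 10% of each list from the strongest (1) to the weakest (10), for whole lists (left) and lists of equal length (right); bars are 95% Clopper-Pearson intervals. In whole lists the WT share goes from 98.1% to 51.4% and the 3A share from 99.8% to 85.9%; at equal length the WT share is 98.5% in the first step, 70.4% in the ninth and 74.6% in the last.

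The lists differed in more than length at equal strength. Between a fold enrichment of 10 and 15, the median −log10 q was 105 in WT and 73.8 in 3A, and the lowest −log10 q kept was 5.15 and 5.04. A WT peak of a given fold enrichment thus carried a smaller q than a 3A peak did. The part of this in the lost and gained counts was not tested.

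Where lost sites lie came next. A summit within 1000 bp of either outer end of a protein-coding gene was called a gene end. Of the lost WT sites 9.73% were at gene ends, 41.9% inside genes and 48.3% outside, against 38.6%, 30.5% and 30.9% of WT peaks with a partner. Read the other way, 8.11% (7.60% to 8.64%) of WT gene-end peaks were lost, 32.5% (31.7% to 33.4%) of those inside genes and 35.4% (34.6% to 36.3%) of those outside. At equal length the same shares were 5.02%, 23.0% and 24.8%.

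The gap was also there among peaks of like strength. Between a fold enrichment of 10 and 15, 93.5% of 2338 WT gene-end peaks had a 3A partner, against 70.4% of 2483 inside genes and 68.9% of 2637 outside. Between 5 and 7.5 the shares were 78.9%, 52.7% and 52.4%. Above 50 they were 99.7%, 98.8% and 98.8%. Gene-end WT peaks were therefore more often matched than others of like strength, up to the strongest class, where nearly all were matched.

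Distance from a start site gave the same order. WT summits within 100 bp of a start had a 3A partner in 95.9% (95.3% to 96.5%) of cases, those 100 to 1000 bp away in 90.7%, and those 1000 to 5000 bp away in 71.3%. Beyond 100000 bp the share was 62.1% (61.0% to 63.2%). The step lay between 1000 and 5000 bp. For 3A summits the share went from 99.3% within 100 bp to 93.3% beyond 100000 bp. Chromosome 8 was not used for distances from a start.

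**Figure D2:**
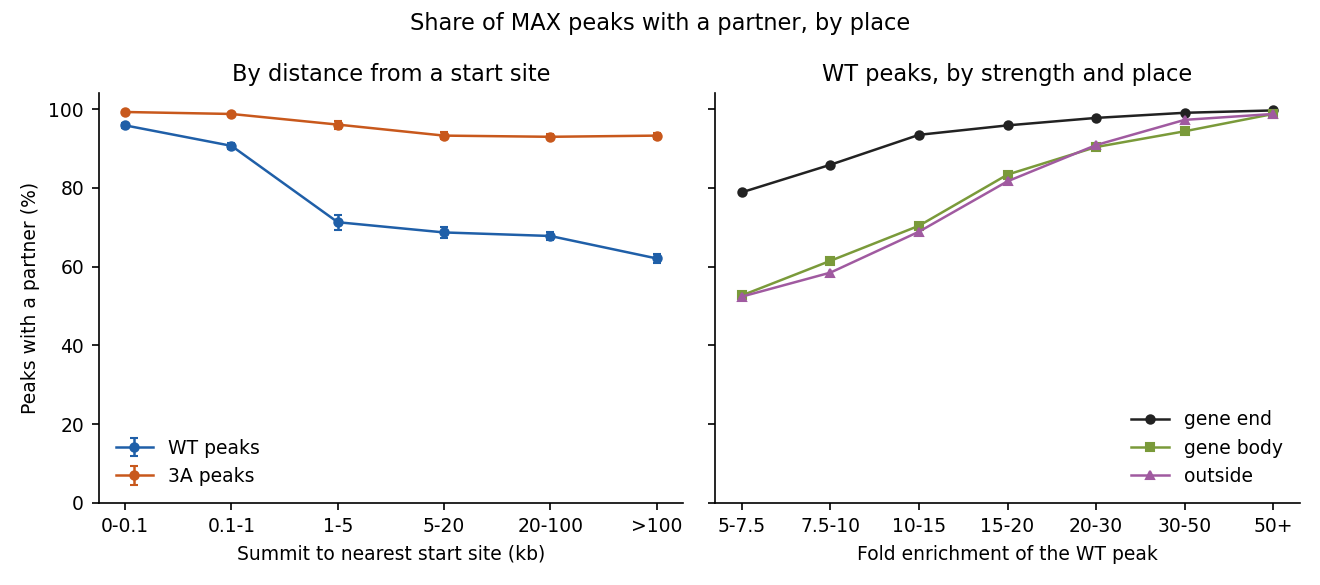
Share of peaks with a partner (%, vertical) by distance of the summit from the nearest start site in kb (left; bars are 95% Clopper-Pearson intervals) and, for WT peaks, by fold enrichment and place (right). WT shares go from 95.9% within 100 bp to 62.1% beyond 100000 bp, and gene-end peaks lie above the other places in each class of fold enrichment.

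Gained 3A sites lay in like places. Of 1253 on the main chromosomes 9.82% were at gene ends, 45.5% inside genes and 44.7% outside. At equal length, however, 17.5% (16.3% to 18.7%) of gained sites were at gene ends against 10.4% (9.57% to 11.3%) of lost ones. The added gained sites there are 3A peaks whose WT partner fell below the length limit.

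Few lost sites sat next to a 3A peak. The median gap from a lost site to the nearest 3A peak was 19366 bp, and 10.6% lay within 1000 bp of one. For gained sites the median gap was 11851 bp and 10.1% lay within 1000 bp.

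Of the 8985 lost sites 4333 (48.2%) stood alone, between WT peaks with a partner, and 468 stood in stretches. In 81 places, 5 or more WT peaks in a row had no 3A partner. The gained sites, a share of 4.59% against 26.0%, had no such stretch, and their longest run held 4. The longest stretch of lost sites held 10 WT peaks on chromosome 8 from 141642597 to 141869224, with fold enrichments of 4.13 to 9.71. A stretch of 9 reached over FAM135B (chromosome 8, 137014385 to 138340937) and one of 8 over PTPRT, a receptor phosphatase (chromosome 20, 41783889 to 43379911). Most were weak, but 6 peaks at AP1S1, an adaptor subunit of vesicle coats, and VGF, a secreted neuropeptide precursor (chromosome 7, 101156857 to 101170126), had a median of 14.8 and a maximum of 23.2. A stretch of 5 at XPNPEP2, SASH3 and ZDHHC9 on chromosome X had a median of 14.7. At equal length, where the shares were 17.2% and 15.5%, there were 10 stretches of lost and 4 of gained peaks, 64.3% and 63.7% stood alone, and the stretch at AP1S1 and VGF was among the 10. By chromosome, the lost share ran from 20.3% on chromosome 17 to 33.1% on chromosome 13, and at equal length from 13.7% on chromosome 15 to 22.0% on chromosome 13.

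The strongest lost sites were described by name. The strongest of all (chromosome 10, 97659439 to 97659949, fold enrichment 87.2) lay inside PI4K2A, a phosphatidylinositol kinase, and the nearest 3A peak was 10054 bp away. At gene ends the strongest was at ZCCHC7, an RNA surveillance factor (chromosome 9, from 37119844), at 77.3 and 0.901% from the top of the WT list. No 3A peak lay within 39928 bp of it. EPHA8, shown above, had 63.6 at 1.61%, and its nearest 3A peak was 110524 bp away. Both are strong WT peaks whose gap to the nearest 3A peak was above the median of 19366 bp over lost sites.

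The next 8 lost gene-end sites ran from 43.2 down to 35.5. They were at PHB2, a prohibitin of the inner mitochondrial membrane (43.2), LOC124901225 inside HMGA1 (42.5) and XPNPEP2, an aminopeptidase (39.7). Then came a site shared by JMJD8 and STUB1, the second a ubiquitin ligase (39.3), and FTL, the ferritin light chain (38.5). AGAP3 and WWC1, a Hippo pathway scaffold, had 37.6 each, and ACTL8, an actin-like gene, had 35.5. Not all of these genes were without MAX in 3A. PHB2, LOC124901225, JMJD8, STUB1, FTL, WWC1 and ACTL8 had another gene-end peak in 3A, and at FTL a 3A peak of 29.6 began 237 bp away. ZCCHC7, EPHA8, XPNPEP2 and AGAP3 had no gene-end peak in 3A, though a 3A peak of 20.7 lay 1705 bp from the AGAP3 site.

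The strongest gained sites had lower fold enrichments than the strongest lost ones, each on its list's own scale. The strongest gained site of all (chromosome 8, 127740395 to 127740947, fold enrichment 41.0, 3.14% from the top of the 3A list) lay inside MYC (127735434 to 127742951). The cells carry MYC as the inducible copy too, and peaks from that copy and from the gene cannot be told apart in the lists. The next lay inside ZBTB38, a zinc-finger gene (38.0), and 315 bp from a WT peak of 33.9. The peak in the PAGE2B promoter, shown above, lay at a start inside the annotated gene and so counted as inside it. At gene ends the strongest were at NSG2, a neuronal vesicle protein (25.3, at 10.7%), and ZBTB7B, a factor of T cell fate (20.1, at 17.5%). The nearest WT peak was 127346 bp from the site at NSG2 and 297 bp from that at ZBTB7B, where it had 62.0.

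The other 8 ran from 16.3 to 11.8, at LOC105370092, NR1D1 (14.5), ADAMTS9, a metalloprotease (13.8), PTPRH, a receptor phosphatase (12.9), MBD2, a reader of methylated DNA (12.8), F10-AS2, MC4R, the melanocortin receptor of appetite control (12.5), and ZNF836. WT peaks lay 736 bp from the NR1D1 site (59.3) and 644 bp from the MBD2 site (at 75.1% of the WT list). No gained gene-end site was in the strongest 10% of the 3A list, while all 10 of the lost ones named were in that of WT. The named sites are the strongest of 123 gained and 874 lost gene-end sites, so this does not show that gained sites were weaker in general.

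Ranks of shared sites were compared next. Pairs were peaks that were each other's largest overlap, 25520 in all, and their ranks correlated across pairs (Spearman's rho 0.69; pairs of one genome share base composition and are not replicates). Of the pairs, 10128 (39.7%) held their rank within 10 points. Ranked 25 or more points lower in 3A were 4545 (17.8%), and ranked 25 or more points higher were 2200 (8.62%). The balance of lower and higher changed with the length of the lists. At equal length 12.6% of 22559 pairs ranked lower and 16.3% higher, and ranked among the pairs alone, which centres the shifts, 13.1% and 12.7% did. Which direction was the more frequent thus depended on how the lists were ended. The pair nearest the limit of 25 points had a shift of 25.0022 (fold enrichment 12.4 in WT, 8.67 in 3A), and the next outside it 24.9954 (16.8 and 10.6).

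**Figure D3:**
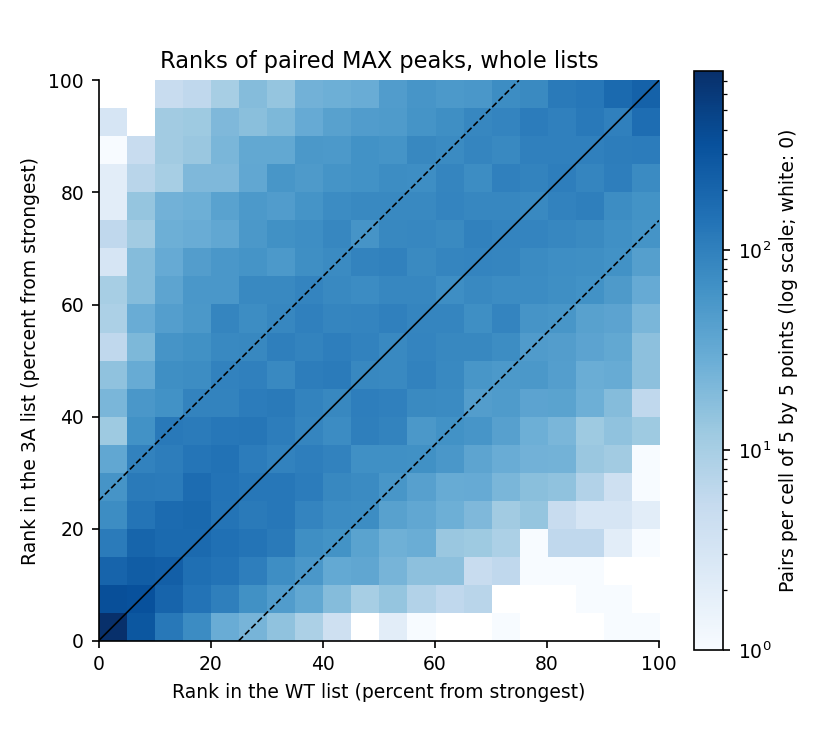
Rank of each paired peak in the WT list (horizontal) and in the 3A list (vertical), in percent from the strongest, as pairs per cell of 5 by 5 points on a log colour scale. The solid line marks equal rank and the dashed lines shifts of 25 points; 4545 pairs lie above the upper dashed line or on it, and 2200 below the lower one or on it.

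The strongest peaks were shared in part. Of the 1000 strongest peaks of each, 476 were pairs of each other, and of the 100 strongest, 21. The median gap between paired summits was 14.0 bp, and 82.0% lay within 50 bp. Pairs were chosen by their overlap, which favours close summits, so these gaps cannot be set against the rank shifts. WT peaks were the wider ones in 70.8% of pairs (median 696 bp against 601 bp).

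Among strong pairs, those at gene ends ranked far lower less often than others did. Of the pairs in the strongest 10% of WT, 9.52% (8.25% to 10.9%) of those at gene ends ranked 25 or more points lower in 3A. Inside genes the share was 17.9% (15.3% to 20.7%) and outside 17.8% (14.9% to 21.0%). Between 20% and 30% of the WT list the shares were 22.6%, 36.8% and 35.7%. By distance over all pairs, 12.4% (11.4% to 13.5%) with a summit within 100 bp of a start ranked lower, 18.3% of those 100 to 1000 bp away and 18.8% of those farther, so only the nearest class stood apart. At equal length the shares were 8.02%, 13.2% and 13.5%. Over all pairs at gene ends the median shift was 2.36 points, and at equal length −1.45.

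Pairs with the largest shifts were taken from gene-end pairs in the strongest 10% of at least 1 list. A start inside the annotated gene, such as that shown for PTCHD4, is no gene end, and pairs elsewhere, that one among them, had shifts within the range of those named here. The largest lower in 3A was at ARSJ, a sulfatase, with 42.4 in WT (4.70% from the top) and 5.22 in 3A (93.7%). At RPS25, a small-subunit ribosomal protein, and its neighbour TRAPPC4 the peak had 62.1 (1.71%) in WT and 6.10 (87.7%) in 3A. TMEM33, an endoplasmic reticulum protein, had 57.3 (2.17%) and 6.70 (83.0%). SF1, a factor that binds the branch point in splicing, had 44.2 (4.21%) and 7.05 (80.1%). In these 4 pairs 1 WT peak faced 1 3A peak.

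At other named sites the WT peak overlapped a second, stronger 3A peak. At EIF1, a factor in start codon choice, the WT peak of 43.5 was paired with a 3A peak of 5.34, but overlapped another of 25.4. At UBE2N, a ubiquitin-conjugating enzyme, the pair had 33.7 and 6.92 and a second 3A peak had 19.5. At TNRC6C, a silencing factor of the microRNA pathway, it had 33.9 and 6.96, with a second of 16.7. FAM53B (42.2 and 7.13) overlapped a second of 10.2, and IKZF1, the lymphoid factor Ikaros (34.0 in WT, its 3A pair at 80.5% of the 3A list), a second one that was no stronger. CASKIN1 had no second peak: 1 WT peak of 38.9 (5.68%) faced 1 3A peak of 6.84 (81.8%), as at ARSJ and SF1.

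The largest shift the other way was of this kind. TRAM1, a translocon protein, had 3.75 in WT (98.1%) and 39.7 in 3A (3.47%), but the same 3A peak overlapped a second WT peak of 48.4. ZBTB20, a zinc-finger repressor, had 7.57 and 39.8, with a second WT peak of 16.2. With 1 peak on each side, MAP3K10, a kinase of the JNK pathway, had 7.67 in WT (69.7%) and 27.3 in 3A (9.00%). CD2BP2 had 9.18 (58.9%) and 28.1 (8.44%), and KHDC4, an RNA-binding splicing factor, 9.78 (55.1%) and 28.6 (8.19%). FBXO38, a ubiquitin ligase receptor, had 11.0 (48.4%) and 30.7 (6.86%). TMSB15A, MBNL2, QNG1 and the site of TMEM253 and ZNF219 lay between these, with 8.39 to 9.79 in WT and 26.5 to 31.5 in 3A. In WT these 8 sites had 7.67 to 11.0, where the median of the list was 10.7, and their place at the top of the 3A list follows from how they were chosen.

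The sites strongest in both lists were chosen for a high rank in each, so their small shifts are no result. DHX33, a helicase of ribosome assembly, had 186 in WT and 195 in 3A. The site between HSF2BP and RRP1B, the latter a nucleolar protein, had 208 and 161. MTHFD1L had 141 and 129, PTPRS, a receptor phosphatase, 213 and 114, and G6PC3, a glucose-6-phosphatase, 132 and 117. All 5 were within the strongest 0.114% of each list.

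**Figure D4:**
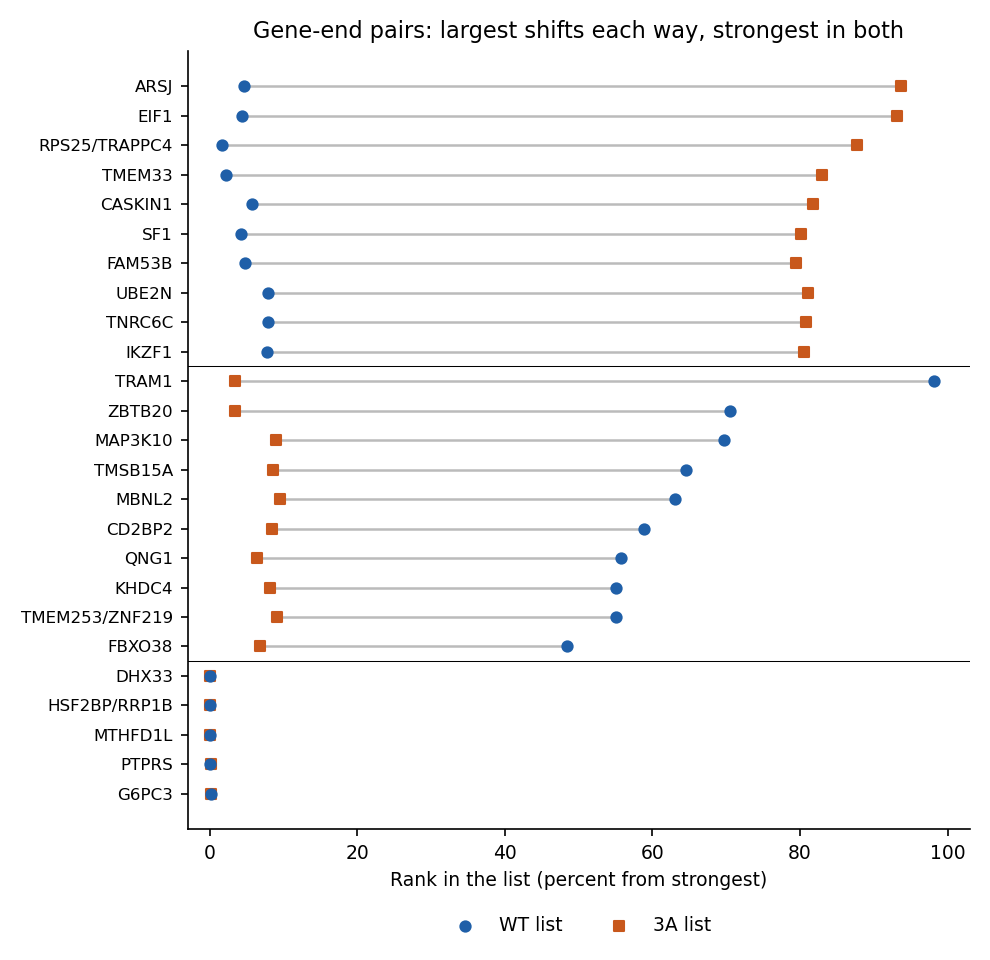
Rank of named gene-end pairs in the WT list (circles) and the 3A list (squares), in percent from the strongest, for the 10 largest shifts lower in 3A, the 10 largest shifts higher in 3A and the 5 pairs strongest in both. The largest shifts cross most of the list (ARSJ from 4.70% to 93.7%), and the 5 strongest pairs lie at the left edge.

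Sequence at promoters was set beside rank. Of 22011 promoters of 300 bases in the table, 1831 (8.32%) held CACGTG (the same on both strands) and 3124 (14.2%) held CACGCG or CGCGTG. Among 2596 promoters with a peak in both lists and WT in the strongest 10%, 22.9% (21.3% to 24.5%) held CACGTG, and among 2133 with 3A in the strongest 10% 22.6% (20.8% to 24.4%) did. Of 11338 promoters with peaks in both, 11.0% did, and of 9769 with none 5.37%. Of 1098 promoters with peaks in both lists and 1 CACGTG, 765 had both summits inside the 300 bases, and there the median distance from summit to motif was 11.5 bp in WT and 16.5 bp in 3A. Promoters with strong peaks in either list thus held the E-box more often than promoters in general. The distances are for peaks of any strength, and the window limits how large they can be.

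Promoters that changed rank held fewer E-boxes than those that did not. CACGTG stood in 14.8% (13.9% to 15.8%) of 5131 promoters within 10 points, in 8.70% (7.40% to 10.1%) of 1701 ranked 25 or more points lower in 3A, and in 4.11% (2.85% to 5.72%) of 803 ranked higher. At equal length the shares were 15.5%, 9.41% and 4.50%. WT-only promoters held it in 60 of 790 (7.59%, 5.85% to 9.67%) and 3A-only promoters in 4 of 114 (3.51%, 0.964% to 8.74%), and at equal length in 52 of 553 (9.40%) and 17 of 657 (2.59%). Strength moves with this: promoters with CACGTG and peaks in both lists had a median rank of 10.7% in WT, those without 28.5%, and a peak near the top cannot rank 25 points higher. Within the strongest 10% of WT, CACGTG stood in 25.3% (23.3% to 27.3%) of those within 10 points and in 15.6% (11.4% to 20.6%) of those ranked lower in 3A.

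Base composition moved with the same classes. The median number of CG dinucleotides was 28.0 in promoters with peaks in both lists, 23.0 in WT-only and 14.0 in 3A-only ones, and 24.0 in those ranked higher in 3A against 29.0 in those ranked lower. CACGCG or CGCGTG stood in 20.8% of promoters ranked lower and in 12.5% of those ranked higher. The part of base composition in the E-box shares was not tested.

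Genes were then followed as groups. Of 19970 protein-coding genes, 11469 had a WT gene-end peak and 624 of these (5.44%) had none in 3A, while 11085 had a 3A gene-end peak and 240 of these (2.17%) had none in WT. At equal length the shares were 3.39% and 7.33%. Part of these genes only changed the peak's summit: 550 (4.80%) had no WT gene-end peak that overlapped any 3A peak, and 81 (0.731%) the reverse. Over the 10845 genes with a peak in both, the median shift of the strongest gene-end peak was 2.08 points, and −1.58 at equal length. Of these genes 14.4% ranked 25 or more points lower in 3A and 7.16% higher, against which the groups below are read.

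Few growth genes lost their gene-end peak, as few of all genes did (5.44%). In ribosome assembly and RNA polymerase I, 50 of 52 genes had a gene-end peak in both lists and none was lost, with a median fold enrichment of 48.9 in WT and 32.0 in 3A and a median shift of 2.41 points. NOB1, an endonuclease of the small subunit, went from 21.2% to 56.2%, and POLR1D, a polymerase subunit, from 9.94% to 47.2%. BRIX1, a large-subunit assembly factor, went from 15.5% to 1.63%. Cytosolic ribosomal proteins kept 45 of 45 (large subunit) and 28 of 28 (small subunit) WT gene-end peaks, and RPS27A had one in 3A alone, which overlapped a WT peak. The largest shift among them was that of RPS25, given above, and 3 others passed 25 points. RPS28 went from 6.72% to 36.7%, RPL19 from 13.5% to 40.8%, and RPL28 from 60.0% to 32.2%.

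Translation factors kept 41 of 41 genes, with 3 lower and 3 higher. EIF5A, the hypusinated elongation factor, had 18.8 (23.1%) in WT and 9.17 (63.0%) in 3A, and EIF3F, a subunit of initiation factor 3, had 5.72 (85.6%) and 15.5 (29.1%). Aminoacyl-tRNA synthetases kept 18 of 18, and EPRS1 went from 23.9% to 2.36%. RNA polymerase III kept 20 of 21 with the limit of 1000 bp, all but BRF1, a subunit of its initiation factor. With 2500 bp, 0 of 21 were lost. MAF1, the repressor of this polymerase, went from 17.4% to 51.3%. Strong peaks had few losses in general, as the plot of partner shares by strength shows.

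Mitochondrial ribosomal proteins ranked lower in 11 of 56 genes (19.6%, against 14.4% of all genes) and higher in 2. Their median shift was 7.17 points, and 3.71 at equal length. At equal length 5 of 55 (9.09%) ranked lower, near the 9.87% of all genes, and 4 (7.27%) higher, against 14.7%. MRPL42 had 34.9 (7.33%) in WT and 9.06 (64.0%) in 3A, while MRPS28 had 14.5 (34.0%) and 47.9 (1.96%). MRPL35 was lost, and MRPS2 had a gene-end peak of 25.1 in 3A alone that overlapped a WT peak. Prohibitins and mitochondrial import kept 19 of 19 genes, with a median shift of 0.0838 points. TIMM13, an import chaperone, had 73.0 (1.11%) and 24.5 (11.5%), and TIMM50, an import receptor, 13.0 (39.2%) and 23.0 (13.2%).

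Cell cycle and replication genes were placed the other way. All 33 with a WT gene-end peak had one in 3A, and the median shift was −4.80 points, or −11.7 at equal length, where over all genes it was −1.58. MCM10, a replication initiation factor, had 10.5 (51.0%) in WT and 23.9 (12.1%) in 3A, and MCM5, a helicase subunit, had 14.0 (35.4%) and 20.6 (16.7%). E2F3, a cell cycle transcription factor, had 16.7 (27.6%) and 7.53 (75.9%), and MAD2L1, of the spindle checkpoint, 31.5 (9.07%) and 12.6 (41.3%). By the limit of 25 points 3 were lower and 1 higher, and most of the shifts behind the median were smaller. Its quartiles, with those of the other groups, are in the plot of rank shifts by gene group.

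Metabolic groups had 1 to 3 genes each without a 3A gene-end peak. In nucleotide and one-carbon synthesis 26 of 27 genes kept a peak, CTPS2 was lost, and TYMS, thymidylate synthase, had 22.6 (17.1%) and 36.0 (4.49%). SHMT1, a serine hydroxymethyltransferase, had 19.8 (21.2%) and 10.0 (57.0%). In glycolysis and lactate export 17 of 18 kept a peak, and the WT peak of PFKP, a phosphofructokinase of 22.8, overlapped a 3A peak whose summit lay away from the gene end. The polyamine and methionine group had 3 of 12 genes without a 3A gene-end peak (25.0%, against 5.44% of all genes). Of these OAZ1, the antizyme that restrains ornithine decarboxylase, and AMD1, the decarboxylase that supplies spermidine synthesis, overlapped a 3A peak. OAZ2 (7.28) did not, which is 1 of 12 (8.33%, against 4.80% of all genes). With a limit of 2500 bp, 2 of 13 (15.4%) were lost, against 5.12% of all genes. ODC1, ornithine decarboxylase, kept strong peaks (113 and 73.8), and SMS, spermine synthase, went from 25.4 (13.8%) to 8.77 (66.2%).

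AP-1 and other immediate early genes, switched on quickly by growth factors, had the highest lost share of the 24 groups with the limit of 1000 bp, but not with a wider one. Of 21 with a WT gene-end peak, 7 (33.3%) had none in 3A, against 5.44% of all genes. For 3 of the 7, FOS and EGR1, transcription factors of the first response, and DUSP1, a phosphatase of MAP kinases, the WT peak still overlapped a 3A peak. The other 4 (19.0%, against 4.80% of all genes) were CCN1, a matrix protein (24.6), KLF6, a zinc-finger factor (18.9), NR4A3, an orphan receptor (10.4), and ZFP36, an RNA decay factor (9.10). The count was 4 of 21 at equal length too, against 2.78% of all genes. With a gene-end limit of 2500 bp, however, 3 of 27 (11.1%) were lost, against 5.12% of all genes. These were CCN1, KLF6 and ZFP36, and the polyamine and methionine group (2 of 13, 15.4%) and HOX genes (4 of 28, 14.3%) were then higher. Members kept were JUNB (84.3 and 53.7), JUND (41.9 and 24.5), SRF (43.6 and 30.6) and KLF10 (52.6 and 36.3). IER5 went from 17.9 (24.9%) to 7.50 (76.2%) and NR4A2 from 19.6 (21.6%) to 8.45 (68.6%). The group was chosen with results of these lists known, and the genes are few.

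**Figure D5:**
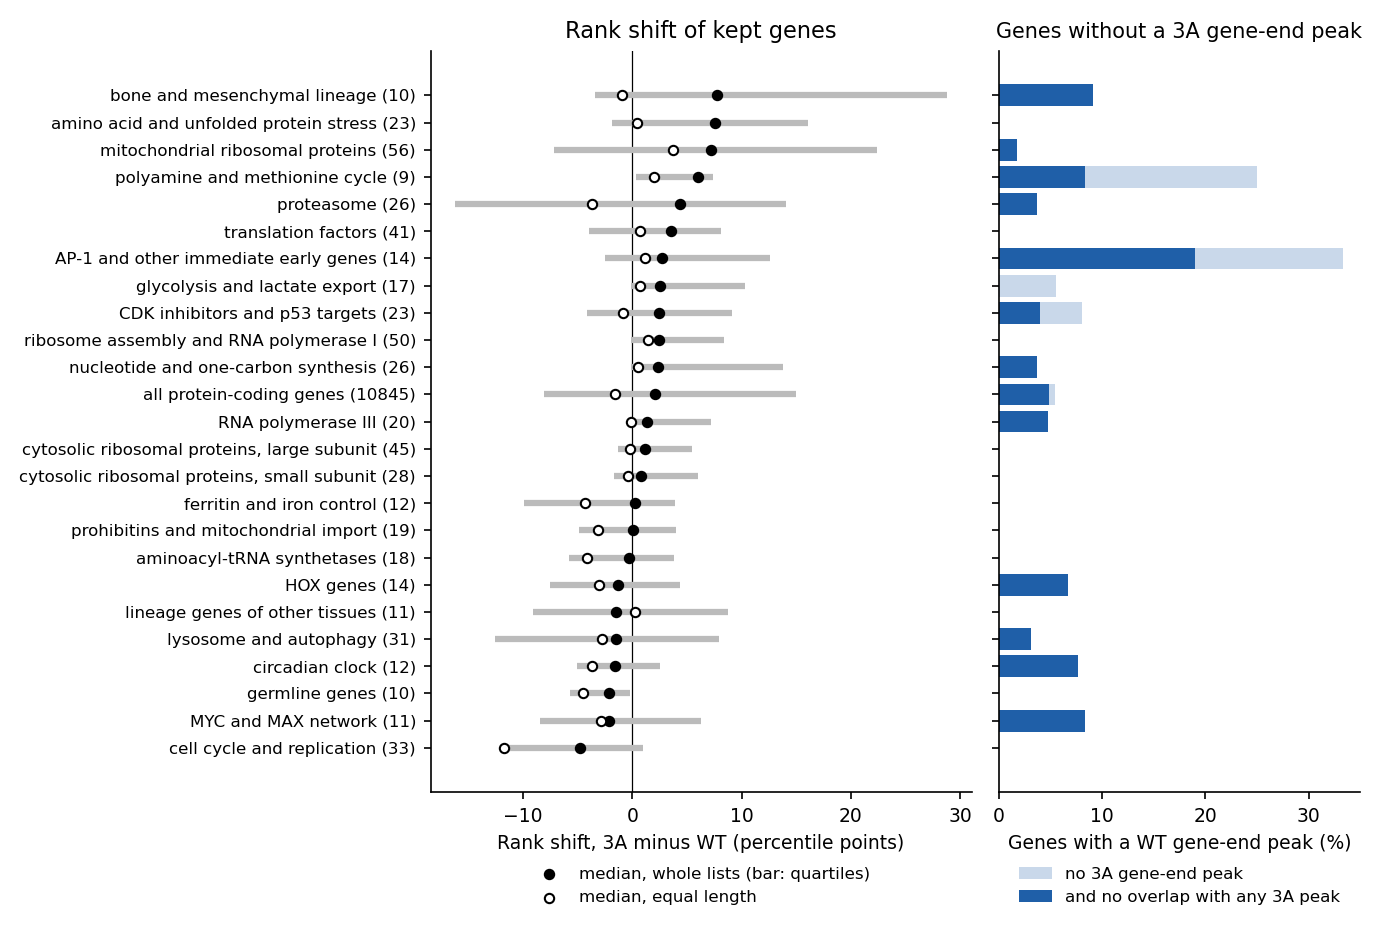
Left, rank shift (3A minus WT, percentile points; above 0 is lower in 3A) of genes with a gene-end peak in both lists, as the median of whole lists (filled, bar from the lower to the upper quartile) and of lists of equal length (open), with the number of genes in brackets. Right, genes whose WT gene-end peak had no gene-end counterpart in 3A, and those that overlapped no 3A peak either (% of genes with one in WT); AP-1 and other immediate early genes stand at 33.3% and 19.0% (11.1% with a gene-end limit of 2500 bp), all protein-coding genes at 5.44% and 4.80%.

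Stress and degradation genes gave mixed ranks. All 23 genes of amino acid and unfolded protein stress with a WT peak kept one, with a median shift of 7.56 points, or 0.448 at equal length. DDIT3, the stress factor CHOP, had 4.55 (94.2%) in WT and 12.8 (40.3%) in 3A, and CHAC1, which breaks down glutathione, 16.5 (28.2%) and 35.5 (4.65%). CEBPG, a partner of ATF4, had 22.4 (17.3%) and 11.9 (44.8%). In the proteasome 3 of 26 genes (11.5%) ranked lower and 4 (15.4%) higher, against 14.4% and 7.16% of all genes. At equal length 2 (7.69%) ranked lower and 8 (30.8%) higher, against 9.87% and 14.7%. PSMD13 had 7.77 (69.0%) and 16.1 (26.9%), and PSMA4 had 18.0 (24.7%) and 9.52 (60.5%). Among lysosome and autophagy genes TFEB, a lysosomal master regulator that also binds E-boxes, was lost (7.52) with the limit of 1000 bp. With 2500 bp, 0 of 33 genes of this group were lost. TFE3, a relative of TFEB, had 16.3 (28.6%) and 6.10 (87.7%). PSAP, the saposin precursor, had 31.9 (8.86%) and 9.62 (59.7%). Among CDK inhibitors and p53 targets CDKN1A, the inhibitor p21, was lost as a weak WT peak (4.31), and GADD45A kept an overlap.

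Iron, clock and lineage groups were small. All 12 ferritin and iron genes with a WT peak kept one. Of 13 clock genes with a WT peak 1 was lost, CIART, and NR1D1, a nuclear receptor that represses clock genes, had a gene-end peak in 3A alone. CRY2, a cryptochrome, had 27.9 (11.6%) and 82.3 (0.388%), and NPAS2, a partner of BMAL1, 19.0 (22.7%) and 9.14 (63.3%). Of the germline genes, many of which are silenced through MGA, 10 of 10 kept a peak, and HORMAD1 was gained. HOXC9 was lost and HOXB13 went from 85.0% to 31.0%. Of the bone and mesenchymal genes, the lineage of U2OS, 11 of 30 had a WT gene-end peak, against 11469 of all 19970 genes. COL5A1 was lost, and TWIST2 went from 18.6 (23.4%) to 7.11 (79.5%). Of 46 genes that mark other lineages, 11 had a WT gene-end peak, all kept. Of 13 with a 3A one, 2 (15.4%, against 2.17% of all genes) had none in WT. These were SYT1 and SST, and their 3A peaks overlapped no WT peak (0.731% of all genes). At equal length 5 of 13 (38.5%, against 7.33% of all genes) had none in WT.

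The MYC and MAX network came last. Of its 13 genes 11 had a gene-end peak in both lists, MXI1 had none in either, and MLXIPL, a glucose-sensing relative, was lost as a weak WT peak (4.75). MLXIP, its paralog, had 68.3 (1.32%) and 98.0 (0.209%), MGA stood at 2.70% and 0.542%, and MNT 26.9 (12.4%) and 31.8 (6.24%). MAX itself had 29.4 (10.5%) and 17.0 (24.3%), and MLX, the partner of MLXIP and MLXIPL, 18.9 (22.8%) and 10.6 (52.4%). Of the repressors that pair with MAX, MXD1 had 60.3 (1.90%) and 22.3 (14.1%), MXD3 74.3 (1.03%) and 52.4 (1.49%), and MXD4 24.8 (14.5%) and 37.0 (4.13%). MYCN had 9.80 (55.0%) and 21.0 (16.2%), and MYCL 4.70 (93.3%) and 6.23 (86.7%). By the limit of 25 points MLX ranked lower and MYCN higher.

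At MYC the promoter peak was paired, with 8.48 (63.8%) in WT and 10.5 (53.4%) in 3A. A further 3A peak without a WT partner lay inside the gene, as given above for chromosome 8 from 127740395.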

How the data were processed

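MAX immunoprecipitates of cells mixed with mouse cells as a reference (ChIP-Rx) were sequenced. Per the submitters' processing notes, the tools included Bowtie2, MACS2, cutadapt, Picard and SAMtools and the builds hg38, hg19 and mm10, with no version or role given. How replicates, and Dox and no Dox, entered peak calling, and whether one Dox state was the control of the other, is not stated in the sources used here. The deposited lists, 1 per MYC form, give each peak's fold enrichment (a linear ratio to a background the lists do not name) and −log10 p and −log10 q, as the authors' peak caller wrote them. The summit offset stands beside these in the deposited lists. Contig names are those of hg38, and positions count from 1. The number of columns of other samples was 0.

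Partners shared at least 1 bp. Pairs were each other's largest overlap. Percent rank was taken by fold enrichment within a list. For equal length, the 27294 peaks of highest −log10 q were kept in each list. Genes and 300-base promoters came from RefSeq tables (GRCh38.p14), which give no promoter on chromosome 8. Of 751 listed genes 750 were matched. No test was made. The overlap and pairing steps were tested on simulated lists. Named are the 10 strongest gene-end peaks without a partner in each list and the 10 largest shifts each way among gene-end pairs in the strongest 10% of a list. Named too are the 5 gene-end pairs strongest in both, up to 3 lost, 3 gained and the 2 most shifted members each way per gene list, and the whole MYC and MAX network. Some genes that this rule gives are not reported here. Other genes, promoters and stretches named were chosen after their values were seen. The members and gene lists were chosen with earlier results of these data known. Alternatives tried were a minimum −log10 q of 10, peaks overlapping by 50% of each, joining within 100 bp, summits within 100 bp, ranks by −log10 q or among pairs, shifts of 10 and 40 points, windows of 500 and 2500 bp, and whole gene bodies. Software was SciPy 1.17.1, Matplotlib 3.10.9, NumPy 2.4.6 and pandas 2.3.3 under Python 3.11.15.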

Additional observations from a re-analysis of the deposited data

How the results depend on the processing

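With −log10 q of at least 10, every share stayed within its interval, and joining peaks within 100 bp left both partner shares at 74.0% (WT) and 95.4% (3A). Partner shares of WT and 3A peaks were 82.8% and 84.5% at equal length and 68.8% and 87.3% with an overlap of 50% of both peaks. With summits within 100 bp they were 65.1% and 82.6%. The 3A share was the higher in each, but these settings cannot show an asymmetry. Both lists had the same matched count with 50% overlap (23825) and with summits within 100 bp (22534), so the shorter list had the higher share. At equal length the gap comes from peaks that overlap several of the other list. Pairs ranked lower and higher in 3A were 12.6% and 16.3% at equal length, 14.9% and 2.93% ranked by −log10 q, and 13.1% and 12.7% ranked among pairs. They were 36.8% and 23.5% for 10 points and 7.30% and 2.52% for 40 points. Pairs ranked lower were 16.7% with 50% overlap and 16.6% with summits within 100 bp. Lower thus outnumbered higher except at equal length, where the order turned, and among pairs, where the intervals (12.7% to 13.6% and 12.3% to 13.2%) overlap and ranking centres the shifts. With a gene-end limit of 2500 bp the lost share of AP-1 and other immediate early genes was 11.1% in place of 33.3%. The gene-end share of lost and gained sites was 10.4% and 17.5% at equal length, and 14.6% and 30.9% with 50% overlap. With summits within 100 bp it was 20.3% and 41.0%, where 31.1% of all WT peaks and 37.6% of all 3A peaks were at gene ends. By that rule gained sites were thus not scarce at gene ends. The shares were 6.10% and 6.78% with 500 bp, and 15.5% and 14.8% with 2500 bp. Genes with a WT gene-end peak and none in 3A, and the reverse, were 3.39% and 7.33% at equal length, 6.99% and 5.86% with 500 bp, and 6.02% and 0.822% over whole gene bodies. With 2500 bp the reverse was 0.976%. Without any overlap, an alternative chosen after seeing the data, they were 4.80% and 0.731%. The cause of these changes was not tested. No paired analysis was possible because each MYC form has 1 list in which no replicate is separated. Depth is unknown, so a site absent from a list may lie under its detection limit.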
